A study of Mus musculus with 6 samples.

Results

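The genes described here encode the proteins of the mitochondrial ribosome, the mitoribosome, as measured by RNA sequencing of adult mouse cerebellum. Members were the rows typed as protein coding whose symbol begins with Mrpl (large subunit) or Mrps (small subunit) and a number, and whose mean over the 6 libraries was at least 1 CPM (counts per 1000000 counts of the library). By type and symbol, 78 rows matched among the 56748 genes counted, and 77 were kept, 48 Mrpl and 29 Mrps. All 77 also passed the filter on low counts that left 16859 genes for testing. The row left out was Mrpl53, listed at 0 counts in every library, which allows at most 0.148 to 0.212 CPM in any library (3 counts of its total, counting error only). The member nearest the limit from above, Mrps18c, averaged 7.10 CPM, so the limit removed a row at 0 and no gene with counts.

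The 6 mice were C57BL/6J and were killed at 90 to 120 days of age. By label, each group held 2 females and 1 male. In the MeHg group (3 mice) the dams had drunk water with 0.2 ppm methylmercury, an organic form of mercury known to harm the developing brain, from the start of pregnancy until birth. In the Control group (3 mice) the dams drank water with 0 ppm over the same days. Exposure therefore ended at birth, and the tissue is from grown offspring. No label gives the dam or litter of a mouse, so some mice may be littermates, and the p-values rest only on the variation among these 6 mice.

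The mitoribosome sits in the mitochondrial matrix and translates the few proteins still encoded by mitochondrial DNA, all of them membrane subunits of the respiratory chain and ATP synthase. Its ribosomal RNAs are made inside the organelle, whereas every one of its proteins is encoded in the nucleus, made in the cytosol and imported. Some of these proteins descend from bacterial ribosomal proteins and others are found only in mitochondria. Neurons depend on oxidative phosphorylation, and inherited defects of several mitoribosomal proteins cause encephalopathy in humans.

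Total counts were 14116088 to 20303833 per library. Control replicate 2, labelled female, had 0.246 CPM of Xist and 213 CPM of 4 Y-linked genes summed, the pattern of the libraries labelled male, and without it 0 members were called (against 1.29% of all genes) and 57 of 77 were above 0 (its values stay in the results below). By these RNAs, and unlike by label, the Control group held fewer females than the MeHg group. Levels of markers of cells near the dissected tissue also differed between libraries. The mean log2 CPM of 8 choroid plexus markers was 5.80, 4.98 and 6.72 in MeHg replicates 1 to 3 and 5.31, 3.56 and 0.71 in Control replicates 1 to 3. That of 4 tested brainstem and midbrain markers was 1.16, 5.18 and 1.93 in MeHg and 0.78, 1.54 and 1.11 in Control, so MeHg replicate 2 stood apart. Granule cell markers, which stand for the densest cell population here, were abundant in every library, with means of 8.84, 8.61 and 8.73 in MeHg and 9.20, 9.12 and 9.11 in Control. In bulk tissue, fewer cells of a type and less RNA per cell cannot be told apart.

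The members were expressed at moderate levels that differed widely between genes. Compared per length as FPKM (fragments per kilobase of gene length, per 1000000 of the library total), the mean over all 6 libraries ran from 42.0 for Mrpl41 to 1.50 for Mrpl33. Mrpl41, found only in mitochondrial ribosomes, had 42.1 ± 2.5 FPKM in MeHg and 41.9 ± 2.8 FPKM in Control (SD, n = 3 each). It was followed by Mrpl34, a homologue of a bacterial large subunit protein, at 35.2 FPKM, and by Mrps21, a homologue of a bacterial small subunit protein, at 30.3 FPKM. Mrpl12, the stalk protein that recruits translation factors, stood at 30.2 FPKM and Mrps12, a protein of the decoding centre, at 26.6 FPKM. Mrps23, a mitochondria-specific protein, was the next Mrps gene at 20.2 FPKM. Low in the order were Mrps18b at 3.24, Mrpl32 at 3.04 and Mrps35 at 2.98 FPKM. Neighbours in this order overlapped between libraries throughout, except at its end, where Mrpl15 at 2.67, Mrps30 at 2.15 and Mrpl33 at 1.50 FPKM did not overlap. The value of Mrpl33 rests on a deposited gene length of 7326 bases, and members' lengths ran from 607 to 8631 bases, so a long annotated transcript lowers a gene's place without fewer counts. In CPM, which takes no length into account, the most abundant member was Mrpl3, a core protein of the large subunit, with 75.8, 72.4 and 71.4 CPM in MeHg and 72.2, 76.8 and 74.5 CPM in Control.

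**Figure D1:**
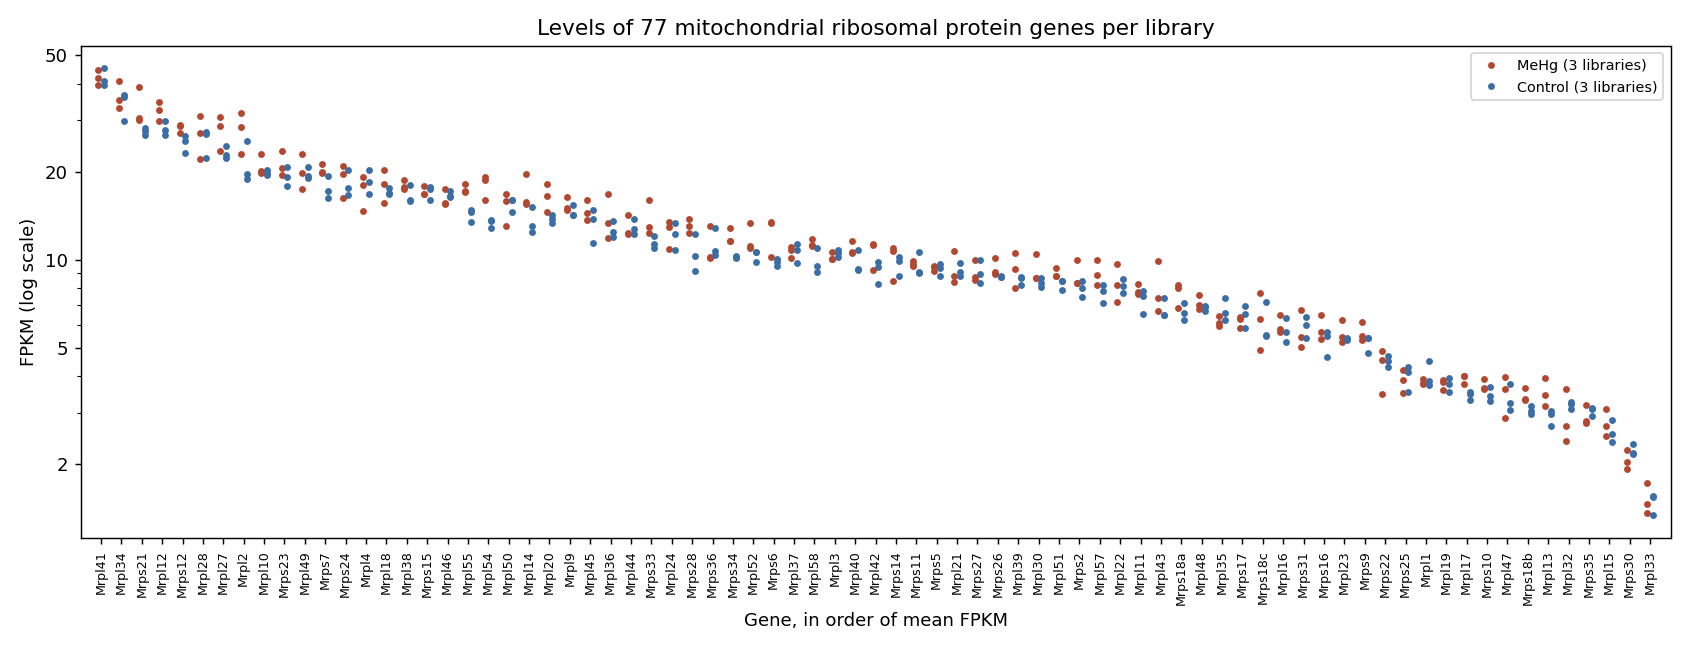
FPKM of each of the 77 genes in each library (log scale), ordered by the mean over 6 libraries, with 3 MeHg libraries left of 3 Control libraries for every gene. Levels fall without a gap from 42.0 FPKM for Mrpl41 to 2.67 for Mrpl15, and Mrps30 and Mrpl33 stand below the rest.

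Many genes of this family start close to a neighbour transcribed the other way. A partner was defined as a protein-coding gene on the opposite strand that starts within 1000 bases, and at most 300 bases inside the gene. By the deposited coordinates (mm39), 23 of 77 members (29.9%) had a partner, against 8.5% of all 21970 protein-coding rows. Mrpl46 and Mrps11, which overlap by more than that at their starts, were not counted as partners. Mrps12 starts 172 bases from Sars2, the mitochondrial seryl-tRNA synthetase, so 2 genes of mitochondrial translation lie back to back. Mrpl36 starts next to Ndufs6, a subunit of respiratory complex I, and Mrpl49 starts 59 bases from Fau, whose product includes a cytosolic ribosomal protein. The fold changes of a member and its partner could differ in sign. Mrpl32, which encodes a bacterial-type large subunit protein, had a log2 fold change of −0.12 ± 0.15 and its partner Psma2 one of 0.13 ± 0.06 (MeHg over Control, SE).

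In RefSeq promoter windows, which run from 250 bases before to 50 bases after the annotated start (GRCm38.p6, another build than that of the deposited files), 68 members had an entry. CCGGAAG, the core bound by ETS factors such as GABP, was found on either strand in 25 of the 68 (36.8%), against 13.2% of 16770 protein-coding symbols with a window. TGCGCA, the core of the NRF1 motif, which reads the same on both strands, was found in 21 (30.9%), against 11.3%. AGATGGC, the core of the YY1 motif, was found on either strand in 12 (17.6%), against 6.96%. GABP and NRF1 are known as activators of nuclear genes for mitochondrial proteins. In all, 43 of 68 held at least 1 of these cores (63.2%, against 27.3%), and none of the matches overlapped a match of another motif. A match is a description of letters and not evidence of binding. Members with the ETS core had a median log2 fold change of 0.15 and those without it 0.07, and for the NRF1 core the medians were 0.15 with and 0.07 without. For the YY1 core they were 0.05 with and 0.09 without. These differences were not tested, gene length was not taken into account, and the same split was not made over all genes with a window.

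These 5 windows were chosen to show several combinations of matches, among genes whose RNA levels are described below. They are printed 5′ to 3′ on the strand of the gene, with the matches in capitals: a YY1 core (read on the other strand) and an ETS core in Mrps12 (chr7:28741772-28742071, minus strand), an NRF1 core and a YY1 core in Mrps7 (chr11:115603890-115604189, plus strand), an ETS core read on the other strand in Mrps21 (chr3:95871465-95871764, minus strand), an NRF1 core in Mrps6 (chr16:92058086-92058385, plus strand) and no match in Mrpl12 (chr11:120484387-120484686, plus strand).
Mrps12: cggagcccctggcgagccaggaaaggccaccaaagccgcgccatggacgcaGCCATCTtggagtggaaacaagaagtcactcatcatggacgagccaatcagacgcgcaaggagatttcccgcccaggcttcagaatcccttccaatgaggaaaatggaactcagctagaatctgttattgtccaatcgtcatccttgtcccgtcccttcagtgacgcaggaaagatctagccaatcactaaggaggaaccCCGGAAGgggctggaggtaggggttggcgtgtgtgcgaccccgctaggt
Mrps7: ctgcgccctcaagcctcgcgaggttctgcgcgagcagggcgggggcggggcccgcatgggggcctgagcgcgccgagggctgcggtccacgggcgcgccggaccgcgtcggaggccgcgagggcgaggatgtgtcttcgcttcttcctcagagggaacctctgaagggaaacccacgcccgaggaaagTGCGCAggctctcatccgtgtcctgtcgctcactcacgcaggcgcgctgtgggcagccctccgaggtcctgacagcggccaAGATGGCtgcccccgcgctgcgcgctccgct
Mrps21: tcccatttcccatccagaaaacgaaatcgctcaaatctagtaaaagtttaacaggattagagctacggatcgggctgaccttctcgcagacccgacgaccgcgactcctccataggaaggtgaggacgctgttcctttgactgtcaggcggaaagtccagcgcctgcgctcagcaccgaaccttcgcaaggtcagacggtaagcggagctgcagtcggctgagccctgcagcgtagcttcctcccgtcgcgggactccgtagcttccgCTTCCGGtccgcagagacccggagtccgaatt
Mrps6: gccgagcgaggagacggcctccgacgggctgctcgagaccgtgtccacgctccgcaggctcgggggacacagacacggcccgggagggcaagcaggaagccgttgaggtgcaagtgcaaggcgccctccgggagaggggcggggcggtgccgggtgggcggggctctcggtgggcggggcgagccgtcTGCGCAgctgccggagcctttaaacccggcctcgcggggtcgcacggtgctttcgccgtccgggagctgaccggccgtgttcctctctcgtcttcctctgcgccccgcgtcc
Mrpl12: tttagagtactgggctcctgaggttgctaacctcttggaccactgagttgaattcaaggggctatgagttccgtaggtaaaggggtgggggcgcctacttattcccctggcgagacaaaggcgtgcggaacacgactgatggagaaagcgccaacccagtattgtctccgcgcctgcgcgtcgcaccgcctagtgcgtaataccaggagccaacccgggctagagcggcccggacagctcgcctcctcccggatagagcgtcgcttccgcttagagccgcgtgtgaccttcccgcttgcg

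The comparison of MeHg with Control asks whether exposure before birth left a difference in the RNA of this family in the adult cerebellum. No member passed the test, yet the family leaned one way. By edgeR's quasi-likelihood test with Benjamini-Hochberg adjustment over all 16859 genes, 0 of 77 members had an adjusted p under 0.05, where 2.36% of all tested genes did, and the smallest adjusted p was 0.082, for Mrpl54. DESeq2's test and limma on log2 FPKM called 0 members as well, where they called 8.27% and 0% of all genes, and 8 members had an unadjusted p under 0.05 by DESeq2, against 20.9% of all genes, and 15 by limma, against 23% of all genes. Members with a log2 fold change above 0 numbered 63 of 77 (81.8%, against 51.1% of all tested genes). Their median was 0.10 on the log2 scale, where the median of all tested genes was 0.01. At an unadjusted p under 0.05, 15 members (19.5%) were higher in MeHg and 0 were lower, where 24.5% of all tested genes passed in either direction and 11.8% were higher. All 3 MeHg libraries lay above all 3 Control libraries for 21 members (27.3%, against 13.9% of all tested genes) and below them for 0 members (against 15.5%).

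**Figure D2:**
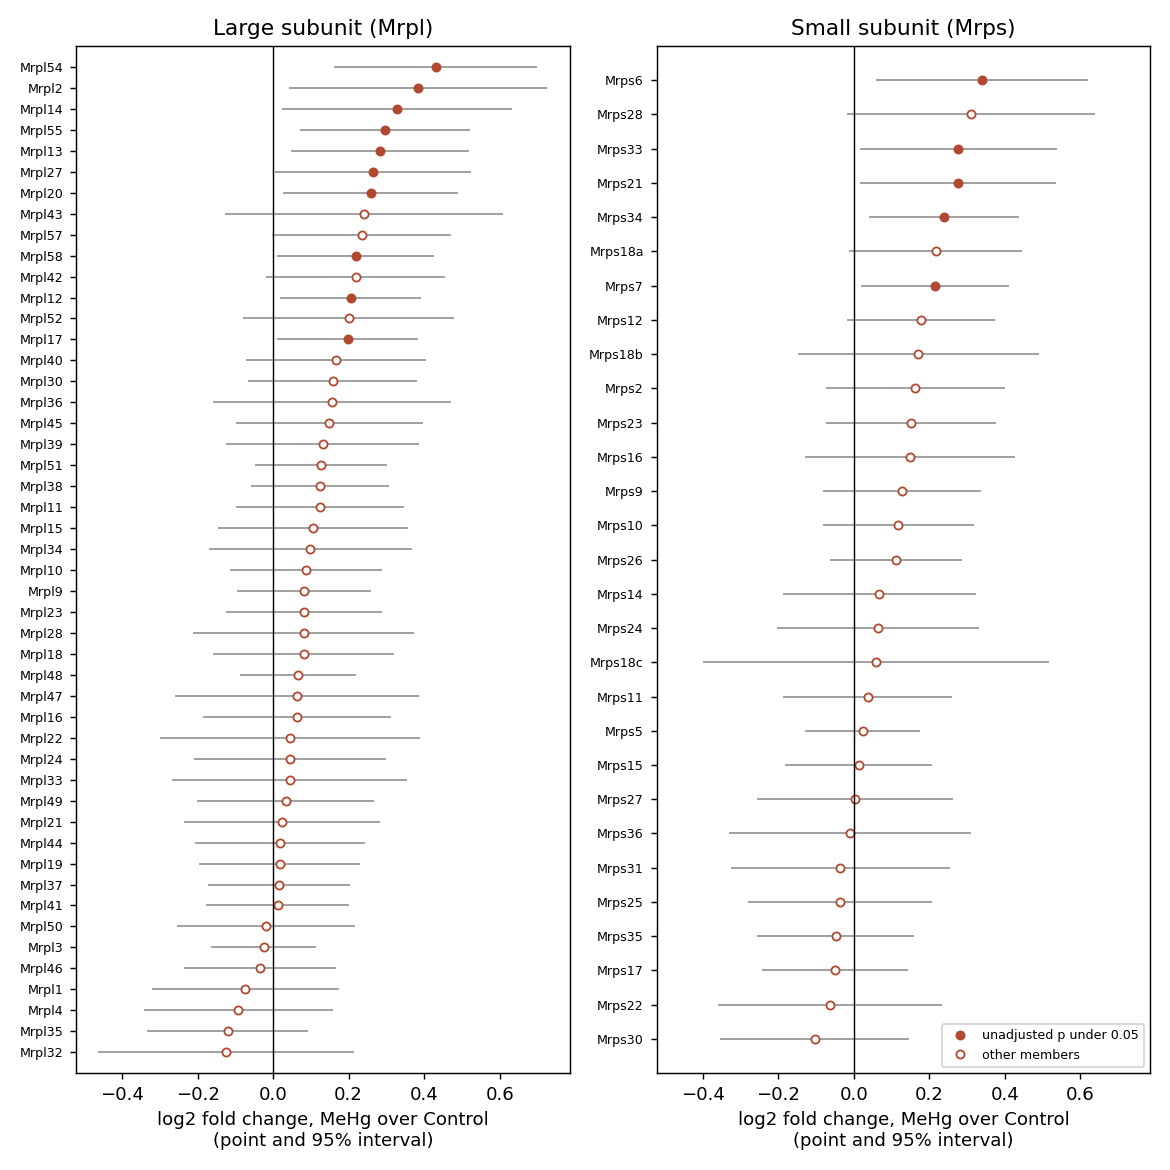
Log2 fold change of each member, MeHg over Control, with its 95% interval from the edgeR fit, for 48 Mrpl genes and 29 Mrps genes ordered by size. Filled points mark the 10 Mrpl and 5 Mrps members with an unadjusted p under 0.05, all of them above 0, and the lowest point is Mrpl32 at −0.12.

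The differences were small and fairly well bounded. For 71 of the 77 members the 95% interval of the fold change stayed inside 1.5-fold in either direction. The other 6 reached beyond 1.5-fold higher in MeHg and none reached 1.5-fold lower. For 58 members the log2 fold change was under 0.2 in size, and the median SE was 0.11. Within groups the median coefficient of variation of CPM over members was 9.46% in MeHg and 6.48% in Control.

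Among the Mrpl genes, Mrpl54 differed most from Control. Mrpl54 (chromosome 10, 81100547 to 81102768, minus strand), a protein found only in mitochondrial ribosomes, had 14.1, 16.7 and 16.8 CPM in MeHg, against 12.02, 11.3 and 11.9 CPM in Control. The groups did not overlap, and the log2 fold change was 0.43 ± 0.12 (SE, edgeR adjusted p = 0.082). Mrpl55 (chromosome 11, 59093312 to 59096960, plus strand), a homologue of a bacterial protein at the subunit interface, had 19.9, 18.9 and 18.7 CPM in MeHg, against 15.9, 16.2 and 14.7 CPM in Control. Here too the 3 MeHg libraries lay together above the Control libraries, with a log2 fold change of 0.30 ± 0.10 and an edgeR adjusted p of 0.12.

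The next 5 Mrpl genes encode homologues of bacterial proteins. Mrpl2, which lies close to the peptidyl transferase centre, had 28.7, 36.0 and 39.5 CPM in MeHg, against 23.4, 31.8 and 24.4 CPM in Control. Control replicate 2 lay above MeHg replicate 1, so the groups overlapped in spite of a log2 fold change of 0.38 ± 0.15 (edgeR adjusted p = 0.17). Mrpl14, a protein of the intersubunit face that holds assembly factors during maturation, had 16.0, 15.8 and 19.9 CPM in MeHg, against 15.3, 13.2 and 12.6 CPM in Control. Its groups were apart by a narrow margin. MeHg replicate 3 was the highest library, and the log2 fold change was 0.33 ± 0.14, or 0.22 without MeHg replicate 3. Mrpl20, a protein that binds ribosomal RNA early in bacterial assembly, had 25.8, 29.8 and 32.1 CPM in MeHg, against 23.6, 25.3 and 24.4 CPM in Control, with a log2 fold change of 0.26 ± 0.10. Mrpl13, another core protein conserved from bacteria, had 26.9, 29.5 and 33.2 CPM in MeHg, against 25.6, 25.1 and 22.8 CPM in Control, with a log2 fold change of 0.28 ± 0.10. Mrpl17, conserved from bacteria as well, had 30.6, 33.0 and 32.5 CPM in MeHg, against 28.6, 28.3 and 26.8 CPM in Control, with a log2 fold change of 0.20 ± 0.08. In each of these 3 genes the lowest MeHg library was above the highest Control library.

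Elongation factors dock at the stalk of the large subunit. Mrpl12, the stalk protein, had 53.0, 49.1 and 56.5 CPM in MeHg, against 48.6, 45.5 and 43.3 CPM in Control. The groups were just apart, with a log2 fold change of 0.21 ± 0.08 (edgeR adjusted p = 0.17). Mrpl10 and Mrpl11, which form the stalk base, overlapped between groups. Mrpl10 had 36.6, 42.5 and 35.9 CPM in MeHg and 36.8, 36.0 and 35.4 CPM in Control, and Mrpl11 had 28.6, 26.6 and 26.8 CPM in MeHg and 22.4, 26.0 and 26.9 CPM in Control.

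Of the large subunit proteins with an enzymatic or enzyme-like fold, Mrpl58, a peptidyl-tRNA hydrolase that became a ribosomal protein and can release stalled chains, had 39.8, 40.2 and 41.9 CPM in MeHg, against 33.6, 38.9 and 32.0 CPM in Control. MeHg values were close together and above all Control values, with a log2 fold change of 0.22 ± 0.09 (edgeR adjusted p = 0.19). Mrpl44, which has a ribonuclease III-like fold and is mutated in a human cardiomyopathy, had 21.7, 21.8 and 24.9 CPM in MeHg and 22.2, 21.4 and 24.0 CPM in Control. Mrpl37, a mitochondria-specific protein not counted among those with such a fold, had 51.5, 53.3 and 48.1 CPM in MeHg and 46.1, 51.5 and 53.8 CPM in Control. For Mrpl44 and Mrpl37 the groups overlapped throughout.

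A few large subunit genes leaned the other way. Mrpl32 had 14.4, 12.9 and 19.1 CPM in MeHg, against 16.3, 17.0 and 17.2 CPM in Control, and MeHg replicate 3 was its highest library. Mrpl35, conserved from bacteria, had 27.1, 26.6 and 28.6 CPM in MeHg, against 32.7, 27.6 and 29.2 CPM in Control, with a log2 fold change of −0.12 ± 0.09. Mrpl4, a protein lining the exit tunnel, had 53.4, 41.4 and 50.1 CPM in MeHg, against 51.3, 46.8 and 56.6 CPM in Control, with a log2 fold change of −0.09 ± 0.11. The groups overlapped in all 3, the lowest edgeR adjusted p of the 3 was 0.47, and without MeHg replicate 2 the sign turned for Mrpl32 and Mrpl4, to log2 fold changes of 0.0007 and 0.02.

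Among the Mrps genes the leading member was Mrps6 (chromosome 16, 91855158 to 91909115, plus strand), a homologue of a bacterial protein of the small subunit platform. It had 21.8, 16.9 and 21.9 CPM in MeHg, against 15.5, 16.0 and 16.4 CPM in Control. MeHg replicate 2 lay only just above the Control libraries, and the log2 fold change was 0.34 ± 0.12 (edgeR adjusted p = 0.14). Without MeHg replicate 2 it was 0.46, and Mrps6 was then called (edgeR adjusted p = 0.036), the only member among 77, where 6.33% of all tested genes were called. In mm39, 12.1% of its exonic bases lie under Slc5a3 on the same strand, an inositol transporter gene with 49.1 CPM, so reads there can belong to either gene.

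Mrps34 (chromosome 17, 25114090 to 25116476, plus strand), a mitochondria-specific protein required for small subunit stability, had 28.2, 25.8 and 25.4 CPM in MeHg, against 22.5, 22.3 and 22.6 CPM in Control. The groups were clearly apart, the Control libraries lay within a narrow range, and the log2 fold change was 0.24 ± 0.09 (edgeR adjusted p = 0.14). Its count is uncertain, because 62.3% of its exonic bases are overlapped by Mapk8ip3 on the opposite strand, which had 480 CPM and a log2 fold change of −0.03 ± 0.09, and 43.5% by Nme3 on the same strand, which is listed at 0 counts. Whether the counting used strand is not given in these sources.

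The remaining leading Mrps genes had smaller or more scattered differences. Mrps7, which helps form the head of the small subunit, had 44.1, 44.2 and 46.9 CPM in MeHg, against 42.7, 35.9 and 37.9 CPM in Control, a log2 fold change of 0.21 ± 0.09. Mrps21, a bacterial homologue, had 24.2, 23.9 and 30.6 CPM in MeHg, against 22.2, 21.8 and 20.9 CPM in Control, a log2 fold change of 0.28 ± 0.12. Mrps33, mitochondria-specific, had 22.0, 23.4 and 28.3 CPM in MeHg, against 19.4, 20.05 and 21.4 CPM in Control, also 0.28 ± 0.12. In all 3 the groups did not overlap, and in Mrps21 and Mrps33 MeHg replicate 3 stood above the other MeHg libraries. Without it the log2 fold changes were 0.15 for Mrps21 and 0.17 for Mrps33. Mrps12, the decoding centre protein, had 31.8, 30.6 and 31.9 CPM in MeHg, against 29.3, 25.8 and 28.2 CPM in Control, a log2 fold change of 0.18 ± 0.09 (edgeR adjusted p = 0.24). Mrps28 had 10.9, 10.5 and 11.5 CPM in MeHg, against 10.1, 8.63 and 7.62 CPM in Control, and its 0.31 ± 0.15 rests on fewer counts than most. Both of these genes were also without overlap between the groups.

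Several genes with a small subunit symbol do not belong to the small subunit. The products of Mrps18a and Mrps30 sit in the large subunit, and that of Mrps36 is known as a component of the 2-oxoglutarate dehydrogenase complex. Mrps18a had 32.2, 27.2 and 31.4 CPM in MeHg, against 25.8, 28.0 and 24.4 CPM in Control, a log2 fold change of 0.22 ± 0.10 with MeHg replicate 2 inside the Control range. Its count is uncertain, because 36.6% of its exonic bases are overlapped by Rsph9 on the opposite strand, which had 6.09 CPM and a log2 fold change of 1.14 ± 0.26 (edgeR adjusted p = 0.053). Its paralogues Mrps18b and Mrps18c, whose products do lie in the small subunit, were the members with the fewest counts. Mrps18b had 8.10, 7.46 and 7.42 CPM in MeHg and 6.59, 6.78 and 7.04 CPM in Control, and Mrps18c had 7.23, 5.69 and 8.83 CPM in MeHg and 6.29, 8.23 and 6.33 CPM in Control. MeHg libraries lay above Control for Mrps18b and on both sides of it for Mrps18c. Mrps30 had 15.9, 13.8 and 14.4 CPM in MeHg, against 15.4, 16.7 and 15.4 CPM in Control, a log2 fold change of −0.10 ± 0.11. Mrps36 had 13.9, 13.9 and 17.7 CPM in MeHg and 14.5, 14.1 and 17.4 CPM in Control, with no separation.

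The other Mrps genes with the lowest fold changes were Mrps22 and Mrps17. Mrps22, mutated in a human neonatal mitochondrial disease, had 19.3, 15.0 and 20.6 CPM in MeHg, against 19.9, 18.3 and 19.1 CPM in Control, a log2 fold change of −0.06 ± 0.13. Mrps17, conserved from bacteria, had 44.1, 41.1 and 43.5 CPM in MeHg, against 47.8, 40.5 and 44.9 CPM in Control, a log2 fold change of −0.05 ± 0.08. Both overlapped, and each changed sign when a library was left out, to 0.07 for Mrps22 without MeHg replicate 2 and to 0.01 for Mrps17 without Control replicate 1.

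The median log2 fold change was 0.09 over 48 Mrpl members, of which 41 were above 0, and 0.11 over 29 Mrps members, of which 22 were above 0. Without the 14 members whose exons overlap another gene over more than 10% of their bases, the order turned, with medians of 0.11 for Mrpl and 0.09 for Mrps, and 52 members were above 0. The median of the Mrpl minus that of the Mrps members, −0.02, also turned without Control replicate 1 (0.0172), MeHg replicate 1 (0.0336) and MeHg replicate 3 (0.0012), and the Mrps median was 0.06 without MeHg replicate 3. The difference between the subunits was not tested. The MeHg libraries lay above all Control libraries for 12 Mrpl members (25%) and 9 Mrps members (31.0%), against 13.9% of all tested genes. By origin, 25 of 30 tested large subunit proteins with a bacterial homologue were above 0, with a median of 0.08, as were 17 of 20 mitochondria-specific ones, with a median of 0.13. In the small subunit, 15 of 16 with a bacterial homologue were above 0, with a median of 0.12, and 6 of 10 mitochondria-specific ones, with a median of 0.06. Of all tested genes, 51.1% were above 0. No gene in any of these groups was called, where 2.36% of all tested genes were.

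Averaged per library, the members were higher in MeHg by 0.11 on the log2 scale, with an SD of 0.07 among MeHg and 0.02 among Control libraries, where all tested genes were higher by 0.05, with an SD of 0.02 in either group. Their mean log2 CPM was 4.72, 4.66 and 4.80 in MeHg replicates 1 to 3, against 4.64, 4.62 and 4.60 in Control replicates 1 to 3. MeHg replicate 2 was nearest to Control, and MeHg replicate 3 farthest. For the Mrpl members the groups did not overlap, with 4.77, 4.73 and 4.88 in MeHg, against 4.70, 4.68 and 4.65 in Control. For the Mrps members they did, with 4.64, 4.54 and 4.68 in MeHg, against 4.54, 4.51 and 4.51 in Control. That overlap was slight, with 4.538 in MeHg replicate 2 and 4.541 in Control replicate 1. The Mrps members include the genes named above that do not belong to the small subunit. Over small subunit proteins with a bacterial homologue, MeHg replicate 2 (4.662) lay above Control replicate 1 (4.645). Over the mitochondria-specific ones it lay below (4.462 against 4.485). MeHg replicate 3 was the highest of all 6 libraries for 43 of 77 members and Control replicate 3 the lowest for 24, as the map of deviations shows. MeHg replicate 2 was below the mean of its own group for most members, with 15 of 77 above it. Left out 1 at a time, the libraries moved the members' median between 0.06 (without MeHg replicate 3) and 0.15 (without MeHg replicate 2), and between 55 and 67 members were above 0.

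**Figure D3:**
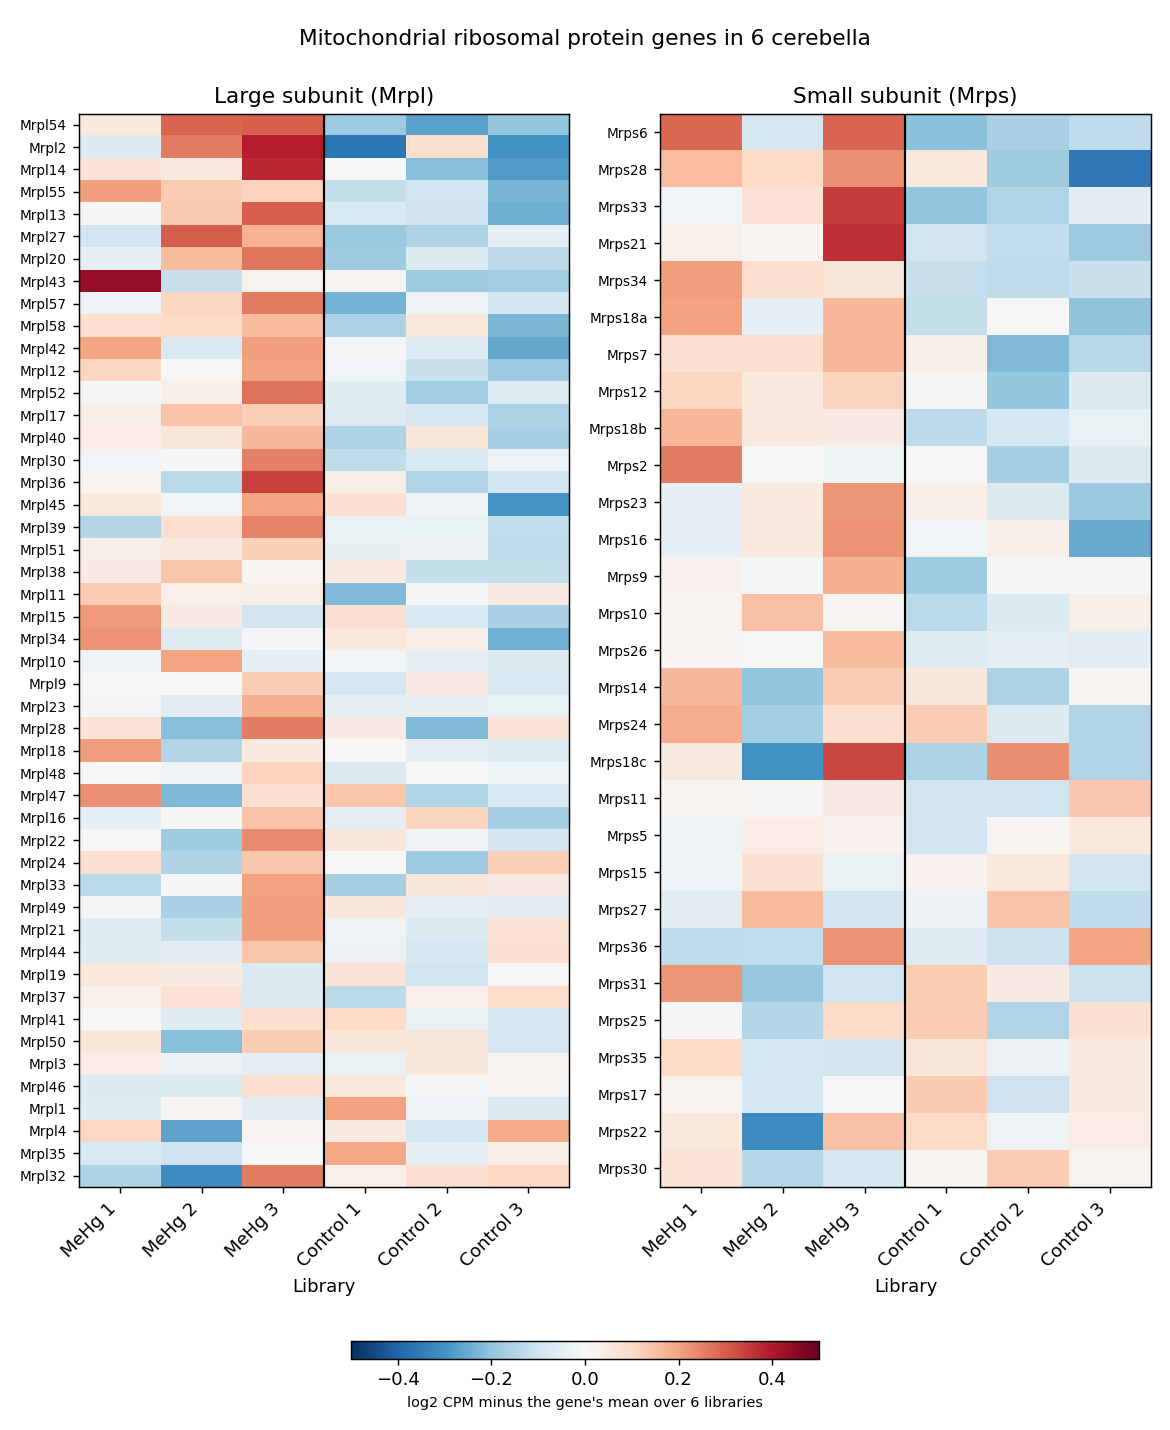
Log2 CPM of each member minus its mean over the 6 libraries, with 3 MeHg columns left of 3 Control columns, ordered within each subunit by log2 fold change (red above the mean, blue below). The upper rows are red in MeHg and blue in Control, MeHg replicate 3 is the highest library for 43 of 77 members, and the lower rows show no division between the groups.

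After the group means were removed, members varied together only weakly. The median Pearson correlation over the 6 libraries was 0.23 between Mrpl members (1128 pairs), 0.14 between Mrps members (406 pairs) and 0.16 between an Mrpl and an Mrps member (1392 pairs). These correlations share libraries, depth and scaling and are given as a description.

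Gene length moved with the fold changes of the family and of all genes alike. Across genes, the Spearman correlation of length with log2 fold change was −0.39 over the 77 members and −0.21 over all tested genes. The 38 shorter members had a median log2 fold change of 0.15 with 35 above 0, and the 39 longer ones 0.08 with 28 above 0. Members are short, with a median length of 2533 bases, against 4105 bases over all tested genes. Per library, the deviation from the gene mean of genes up to 2414 bases minus that of genes of 6479 bases or more was 0.05, 0.01 and 0.14 log2 units in MeHg replicates 1 to 3, against −0.07, −0.04 and −0.08 in Control replicates 1 to 3.

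With a loess offset for length in each library, the lean of the family was smaller. The members' median was then 0.03, with 43 of 77 above 0 and 3 at an unadjusted p under 0.05 (against 23.6% of all genes), all genes had a median of −0.04, and 55 of 77 members lay above that median. The distance between members and all genes was thus 0.08 with the offset and 0.09 without it. All genes are longer than the members, so this distance does not compare genes of like length. The tenth of all genes with a median length of 2414 bases had a median of 0.0755 without the offset and −0.0315 with it. The difference between members and genes of their length was not tested. Mrpl54, Mrpl13 and Mrpl2 had log2 fold changes of 0.36, 0.29 and 0.29 with the offset. Neither a member nor any other gene of the table (0%) was called under this setting, where the smallest edgeR adjusted p was 0.0502. Without the offset the smallest was 0.0431, so the loss of calls turned on values close to the limit. At an unadjusted p under 0.05 by edgeR, the share of all genes was 23.6% with the offset and 24.5% without it.

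**Figure D4:**
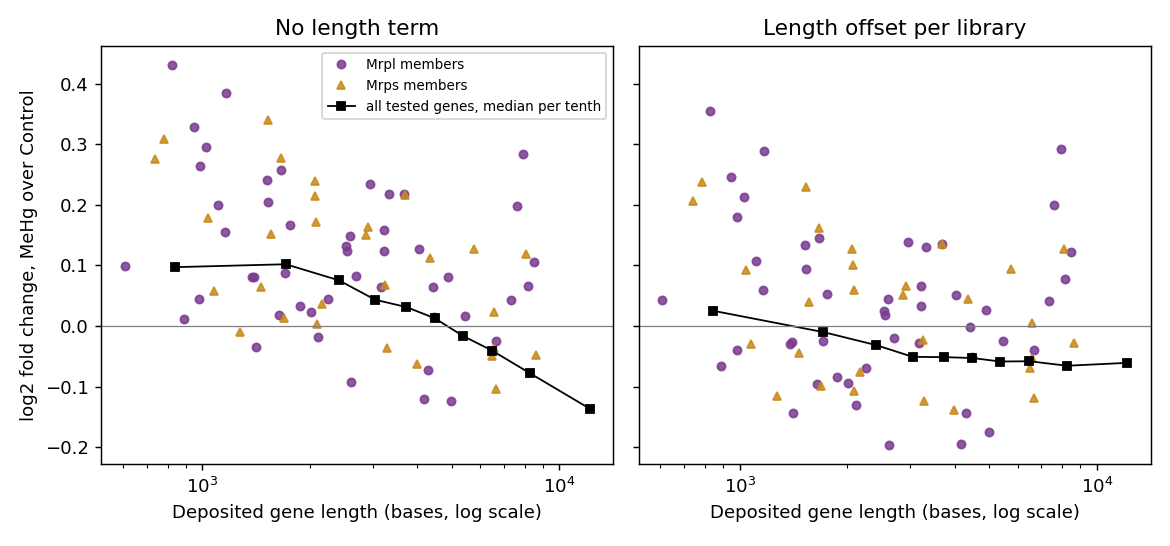
Log2 fold change, MeHg over Control, against deposited gene length (log scale) for Mrpl members (circles) and Mrps members (triangles), with the median of all tested genes in 10 groups of equal size by length (black squares), without a length term (left) and with a length offset (right). Without the term the median of all genes falls from 0.10 for the shortest group to −0.14 for the longest, and with it from 0.03 to −0.06, while members lie on both sides of the line in either panel.

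Other genes of mitochondrial translation had a median slightly below 0. Of 62 genes for mitoribosome assembly, translation factors and aminoacyl-tRNA synthetases, 25 had a log2 fold change above 0 (40.3%, against 51.1% of all tested genes). Their median was −0.04 and none was called, where 2.36% of all tested genes were. The difference from the ribosomal proteins was not tested. Among 26 assembly and rRNA modification genes, 9 were above 0 and the median was −0.06. Fastkd2, an RNA-binding protein needed for large subunit assembly, had 21.9, 22.9 and 21.6 CPM in MeHg, against 26.7, 26.3 and 26.6 CPM in Control, with the groups apart and a log2 fold change of −0.26 ± 0.08 (edgeR adjusted p = 0.11). Among 16 translation factors, 7 were above 0 and the median was −0.03. Tufm, the elongation factor that delivers aminoacyl-tRNA, had 63.8, 56.2 and 66.3 CPM in MeHg, against 52.5, 51.3 and 52.7 CPM in Control, a log2 fold change of 0.25 ± 0.08 (edgeR adjusted p = 0.10). Without MeHg replicate 2, where 6.33% of all genes were called, the adjusted p of Tufm was 0.028, and without any 1 of the other libraries it was 0.17 to 0.29. Among 20 synthetase-related genes, 9 were above 0 with a median of −0.03. Gatc, a subunit of the amidotransferase that makes glutaminyl-tRNA, had 33.4, 32.3 and 34.7 CPM in MeHg, against 40.0, 39.3 and 42.3 CPM in Control, a log2 fold change of −0.27 ± 0.08 (edgeR adjusted p = 0.087).

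Mitoribosomal proteins that carry other symbols were split. Of 5 such genes, 2 were above 0 (40%, against 51.1% of all tested genes), and the median was −0.07. Aurkaip1, a small subunit protein, had 61.3, 57.6 and 69.4 CPM in MeHg, against 52.7, 51.5 and 51.3 CPM in Control, a log2 fold change of 0.28 ± 0.08 (edgeR adjusted p = 0.094). Its adjusted p was 0.035 without MeHg replicate 2 and 0.13 to 0.29 without any 1 of the other libraries. Ptcd3, also of the small subunit, had 51.6, 50.8 and 49.1 CPM in MeHg, against 56.0, 59.4 and 54.0 CPM in Control, a log2 fold change of −0.16 ± 0.07. Both genes were apart between groups, in opposite directions, and neither was called with all libraries, where 2.36% of all tested genes were.

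The ribosomal RNAs of the mitoribosome are measured here as well. The small subunit rRNA, mt-Rnr1, had 1147, 1245 and 1438 CPM in MeHg, against 1074, 1092 and 1169 CPM in Control, a log2 fold change of 0.20 ± 0.10. The large subunit rRNA, mt-Rnr2, had 1856, 2055 and 2279 CPM in MeHg, against 1707, 1911 and 1870 CPM in Control, a log2 fold change of 0.17 ± 0.10. For both, MeHg replicate 1 lay inside the Control range and MeHg replicate 3 was highest, and neither was called (edgeR adjusted p = 0.24 and 0.30). Without MeHg replicate 3 the log2 fold changes were 0.11 for mt-Rnr1 and 0.10 for mt-Rnr2. Of 13 protein genes of mitochondrial DNA, 11 were above 0 (84.6%, against 51.1% of all tested genes) and none was called (against 2.36%). Their log2 fold changes had a median of 0.26 and ran from −0.55 to 1.14. Mean log2 CPM was 8.364, 8.316 and 8.678 in MeHg and 7.928, 8.555 and 8.081 in Control, so the groups overlapped. All MeHg libraries lay above all Control libraries for 1 gene (7.69%, against 13.9% of all tested genes).

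The regulators of nuclear genes for mitochondrial proteins were mostly below 0, with a median of −0.15. Above 0 was 1 of 8 (12.5%, against 51.1% of all tested genes). Ppargc1b, a transcriptional coactivator of mitochondrial biogenesis, had 16.4, 21.1 and 13.8 CPM in MeHg, against 28.4, 26.9 and 29.2 CPM in Control. It fell in MeHg, by 0.72 ± 0.15 on the log2 scale (edgeR adjusted p = 0.046), a call that was lost without any of the libraries but MeHg replicate 2 (adjusted p = 0.070 to 0.21), and with upper-quartile scaling (0.054), the length offset (0.053) or limma on log2(FPKM + 1) (0.078). The exception was Esrra, a nuclear receptor that works with these coactivators, at 117, 112 and 121 CPM in MeHg, against 98.2, 104 and 99.7 CPM in Control, a log2 fold change of 0.21 ± 0.06 (edgeR adjusted p = 0.080). For Esrra the adjusted p was 0.039 without MeHg replicate 2 and 0.10 to 0.28 without any 1 of the other libraries. The GABP subunits Gabpa and Gabpb1 were named after their values were seen. They are among the 4 of 8 regulators with an unadjusted p under 0.05 by edgeR (50%, against 24.5% of all tested genes). Gabpa had 39.3, 31.4 and 38.3 CPM in MeHg, against 45.1, 41.6 and 41.9 CPM in Control. Gabpb1 had 29.0, 25.2 and 26.0 CPM in MeHg, against 31.6, 30.7 and 30.6 CPM in Control. Both had MeHg below Control in every library, with log2 fold changes of −0.24 ± 0.10 and −0.21 ± 0.09, and neither was called (edgeR adjusted p = 0.19 for each). Without MeHg replicate 2 the value of Gabpa was −0.14.

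Cytosolic ribosomal proteins and complex I, the first enzyme of the respiratory chain, gave larger medians. Of 82 tested cytosolic ribosomal protein genes, 77 were above 0, the median was 0.21, and 6 were called, all higher in MeHg. Of all tested genes, 51.1% were above 0 and 2.36% were called, 97 of them higher and 301 lower. Of 38 tested complex I subunit genes, 36 were above 0, the median was 0.20 and none was called. With the length offset the medians were 0.12 and 0.09. The difference between these families and the mitoribosomal proteins was not tested.

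**Figure D5:**
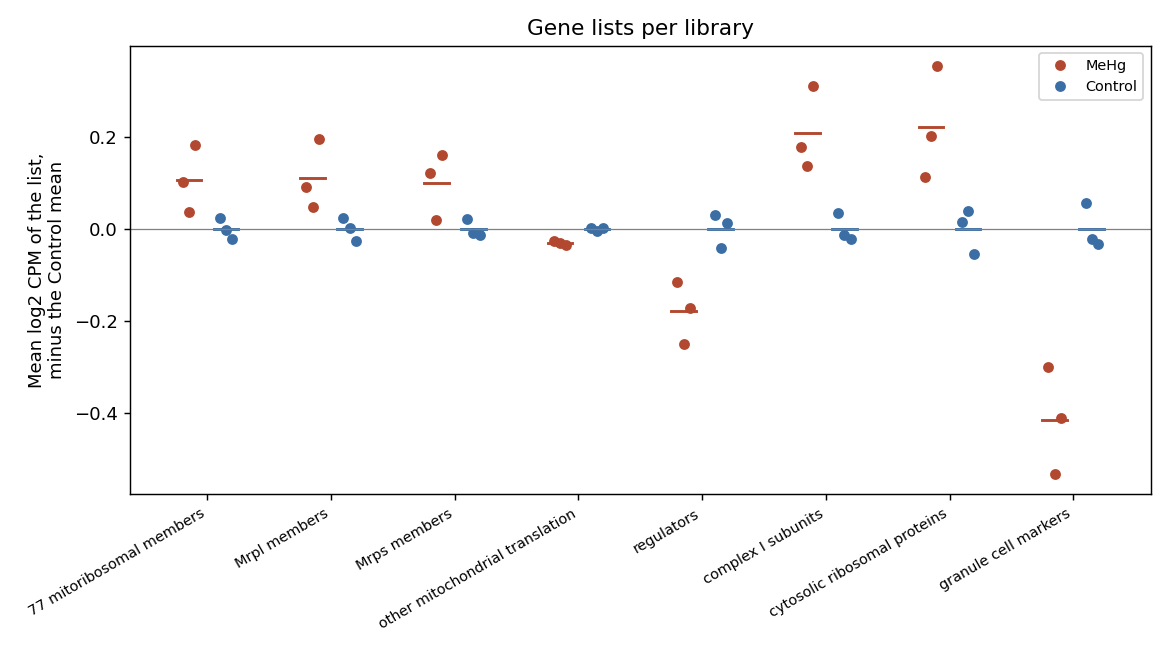
Mean log2 CPM of each gene list in each library minus the mean of the Control libraries, with 3 MeHg libraries left of 3 Control libraries and a bar at each group mean. The members' mean differed by 0.11 between groups, that of complex I subunits by 0.21, that of cytosolic ribosomal proteins by 0.22, that of regulators by −0.18 and that of granule cell markers by −0.41.

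Cell type markers moved in the same comparison. In all tested genes, 51.1% had a log2 fold change above 0 and 2.36% were called. Of 10 granule cell markers, 0 had a log2 fold change above 0, 6 were called, all lower in MeHg, and the median was −0.41. Of 6 ependymal markers, all were above 0 and 2 were called, and of 8 choroid plexus markers, all were above 0, with a median of 1.88, and none was called. The oligodendrocyte markers had a median of 0.33. Their part in the lean of the mitoribosomal genes was not tested. Without both libraries numbered 2, the members' median was 0.15 and 67 were above 0.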

How the data were processed

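RNA of 6 cerebella was sequenced on an Illumina NovaSeq with paired reads of 150 bases, per the labels' protocols. The authors deposited raw counts per gene, in whole numbers, and FPKM values made from counts, gene length and a library total, per the file headers and the values. The submitters' processing notes name mm39 and DESeq2. No source used here gives the aligner, the counter, the annotation release or the use of strand. All deposited columns were matched to labelled samples.

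Counts were filtered with edgeR 4.0.16's filterByExpr and scaled by TMM (R 4.3.3). MeHg was compared with Control, 3 against 3, by the quasi-likelihood test, with group as the only term, and p-values were adjusted by Benjamini-Hochberg over 16859 genes. The SE is the log2 fold change divided by the square root of F. CPM is relative to the TMM-scaled total, with a prior count of 2 on the log scale, except for the 1 CPM membership rule, the sex-linked RNA and the limit for 0 counts, which use plain totals. The limit is 3 counts. Alternatives were DESeq2 1.42.0, limma 3.58.1 on log2(FPKM + 1) and log2(FPKM + 0.1), other scalings, no filter, replicate number or labelled sex as a term, loess offsets (span 0.5) for length or GC content, and leaving out libraries. The sex term kept the female label of Control replicate 2, and sex by RNA was not fitted. The fits were tested on simulated counts. No libraries of a group were copies (chi-square per degree of freedom 7.73 to 19.6).

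The members and gene lists were chosen with earlier results of these data known. Named members are, in each subunit by symbol, the 8 with the smallest p, the 3 with the lowest fold change and the 3 highest and lowest by FPKM, with genes fixed by role. Of each other list at most 2 are named, by the smallest p, except 4 of the regulators. GC content and exon overlaps come from GENCODE vM39 within the deposited gene spans, and promoters from RefSeq (GRCm38.p6). Processed pseudogenes (6 rows, at most 1.72 CPM) were not members.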

Additional observations from a re-analysis of the deposited data

How the results depend on the processing

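The count of genes called over the whole table, 398, was 380 with DESeq2 size factors but moved further elsewhere: 197 with upper-quartile scaling, 2378 without the filter on low counts, 1394 by DESeq2's test, 648 with a replicate block, 609 with labelled sex as a term, 0 with the length offset, 627 with the GC offset, 226 with both offsets, 0 by limma on log2(FPKM + 1) and 0 with 0.1 added, 1723 without both libraries numbered 2, and 0 to 1091 with a library left out. The libraries whose removal left 0 calls were MeHg replicate 3 and Control replicates 1 and 3. Members called stayed at 0 in these settings, except 1 without the filter (Mrpl2, adjusted p = 0.024), 0 to 1 with a library left out and 1 without both libraries numbered 2 (Mrps6 in either case). The members' median stayed above 0 in all settings run, with 43 to 69 of 77 above 0. These counts shift with the scaling. With the length offset 43 were above 0 and the median of all genes was −0.0446. With upper-quartile scaling 69 were, and the median of all genes was 0.0438. With the GC offset alone 45 members were above 0, with a median of 0.0675, against −0.0457 for all genes. The median of the Mrps members was 0.0352 with both offsets, against 0.11. Of 612 fold changes recomputed for 34 named genes, 6 reversed, and in 9 a call was gained and in 9 lost. All 9 lost calls were of Ppargc1b, out of its 18 settings. The 34 leave out some named members with fold changes near 0, such as Mrps36, Mrpl37 and Mrpl44, whose signs may be less stable. With a library left out, Mrpl32 had values from −0.30 to 0.0007, Mrpl4 from −0.17 to 0.0171, Mrps22 from −0.15 to 0.0704 and Mrps17 from −0.11 to 0.0127, and without both libraries numbered 2 Mrpl32 had 0.0054 and Mrps22 0.0368. Same-numbered libraries correlated at 0.19, 0.35 and −0.24 for numbers 1, 2 and 3, after group means were removed, and 3 of 6 libraries correlated best with their own number. These values gave no clear pairing by number, and with so few libraries they cannot exclude one. With 3 libraries in each group and a median SE of 0.11, member differences of the median size could not be called one by one. The GC and combined offsets and the setting without both libraries numbered 2 were added after the data were seen.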
